A study of Homo sapiens with 4 samples.

Results

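This account follows 10 genes that encode restriction factors, host proteins that block steps of viral replication inside the cell, in human fibroblasts in which the transcription factor FOXA2 was switched on. The genes are MX1, MX2, BST2, RSAD2, TRIM5, TRIM22, SAMHD1, ZC3HAV1, ISG20 and SLFN5. They were found by gene symbol, 1 row each, among the 63651 rows of the deposited expression table. The set was chosen by these FPKM values and their intervals, so the levels below are a description and carry no test.

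The cells were clonally derived from BJ-5ta, human foreskin fibroblasts immortalised with telomerase, and carried a doxycycline-inducible FOXA2. The induced group (2 samples) received 0.5 µg/ml doxycycline, and the uninduced group (2 samples) received none. Both were grown with 10% serum, 0.01 mg/ml hygromycin B, 5 ng/ml bFGF and 0.5 µg/ml puromycin. The treatment text also names 200 µM mimosine overnight, which halts cells in G1, and does not say which cultures received it. No culture given doxycycline without the transgene was analysed here, so effects of the drug and of FOXA2 cannot be told apart. How many clones the samples represent is not stated.

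The table gives 1 FPKM per gene for each group, that is, a fragment count scaled to transcript length and to library size. Each value comes with both confidence bounds, and there is none per sample. The differences therefore have no replicate check. The words rose and fell are used only of genes whose induced and uninduced intervals do not overlap. This holds in the upward direction for 104 of the 14319 rows with at least 1 FPKM in either column (0.726%), and in the downward direction for 65 (0.454%). FOXA2 was at 104 FPKM (interval 50.2 to 158) in induced cells, against 4.82 FPKM (0.526 to 9.12) in uninduced cells.

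Type I interferon, once secreted, binds a receptor whose kinases JAK1 and TYK2 activate STAT2. STAT2 acts with IRF9 at interferon-stimulated response elements in the promoters of target genes. Restriction factors are among those targets, and fibroblasts are a classical responder: some factors are kept at a basal level, and others are nearly silent until interferon arrives.

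The promoters are shown because the set is known for its response elements. RefSeq promoter windows (GRCh38.p14, 250 bases before to 50 bases after an annotated start) were found for 7 of the 10 genes, with 3 starts for MX1 and 2 for RSAD2, which makes 10 windows. Each line runs 5′ to 3′ on the strand of the gene. Capitals mark the core of the interferon-stimulated response element, which is GAAA, any 2 bases, then GAAA, read on either strand. BST2 lies at chr19:17405581-17405880 (minus strand), RSAD2 from its second start at chr2:6877527-6877826 (plus), ISG20 at chr15:88638766-88639065 (plus) and MX1 from its first start at chr21:41420308-41420607 (plus).
BST2: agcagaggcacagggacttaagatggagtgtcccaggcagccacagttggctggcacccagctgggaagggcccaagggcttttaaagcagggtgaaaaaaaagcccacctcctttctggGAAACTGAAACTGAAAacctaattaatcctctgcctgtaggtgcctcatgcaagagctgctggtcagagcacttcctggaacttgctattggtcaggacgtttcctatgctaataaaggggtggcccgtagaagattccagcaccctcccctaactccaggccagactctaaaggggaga
RSAD2: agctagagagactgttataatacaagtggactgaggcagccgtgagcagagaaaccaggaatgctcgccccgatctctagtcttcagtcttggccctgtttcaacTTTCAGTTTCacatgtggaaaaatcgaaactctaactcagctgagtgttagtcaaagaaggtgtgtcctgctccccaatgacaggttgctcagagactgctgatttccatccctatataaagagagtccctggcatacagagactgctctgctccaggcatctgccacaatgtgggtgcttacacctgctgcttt
ISG20: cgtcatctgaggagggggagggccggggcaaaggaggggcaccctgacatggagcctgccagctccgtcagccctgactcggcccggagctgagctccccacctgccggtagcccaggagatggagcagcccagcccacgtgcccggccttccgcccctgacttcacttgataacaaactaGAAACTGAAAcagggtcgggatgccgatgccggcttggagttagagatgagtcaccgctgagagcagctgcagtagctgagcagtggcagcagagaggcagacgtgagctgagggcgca
MX1: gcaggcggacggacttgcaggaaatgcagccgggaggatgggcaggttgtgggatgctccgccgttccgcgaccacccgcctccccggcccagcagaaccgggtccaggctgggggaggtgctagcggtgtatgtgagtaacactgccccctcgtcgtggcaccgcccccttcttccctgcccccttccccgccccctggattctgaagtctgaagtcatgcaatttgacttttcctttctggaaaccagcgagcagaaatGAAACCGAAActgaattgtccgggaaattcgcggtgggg
The cores of TRIM5 and of the third MX1 start are given with their flanks only. They come from the windows chr11:5685025-5685324 (minus) and chr21:41431800-41432099 (plus).
TRIM5: atagtttatcTTTCACTTTCctgccctgag
MX1 at the third start: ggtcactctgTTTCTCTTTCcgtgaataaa

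The core stood in 6 of the 10 windows and in 5 of the 7 genes, BST2, ISG20, MX1, RSAD2 and TRIM5. Of all 35116 promoter windows in the reference table, 3.57% held it. BST2 had 2 copies that overlap, with first bases at positions -130 and -124, counted in bases from the start. The copy of RSAD2 began at position -145, that of ISG20 at -69 and that of TRIM5 at -27. At the first MX1 start it lay after the start, at position 12, and at the third start at position -196. BST2, ISG20 and RSAD2 carried the same 10 letters, GAAACTGAAA on 1 strand or the other, which 0.265% of all windows held. These letters were picked as the most frequent core among the matches of the members themselves, so nothing is read from that share. The core of TRIM5 reads GAAAGTGAAA in the same orientation, and those of MX1 read GAAACCGAAA and GAAAGAGAAA.

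The windows of SAMHD1 and ZC3HAV1 held no exact core. The GAS element, TTCNNNGAA, known from interferon gamma responses, stood in the windows of BST2 (positions -136 and -58), ZC3HAV1 (-104) and MX1 (at the third start, -189), against 7.66% of all windows. At BST2 and at the third MX1 start a GAS match shared bases with a response element core. The forkhead core in the forms TGTTTAC (3.42% of all windows) and TATTTAC (2.67%) was searched on both strands and stood in 0 of the 10 windows. A match of letters is a description of the reference sequence. It does not show that a protein binds there, and a window without the letters says nothing of the factor.

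**Figure D1:**
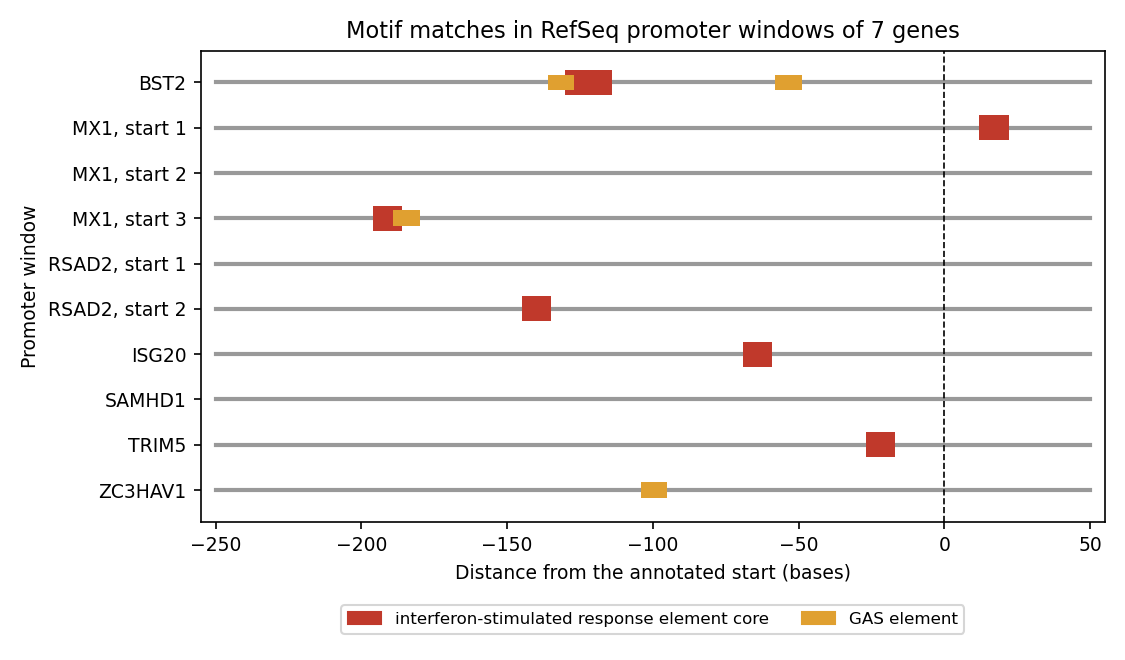
Positions of response element cores (red) and GAS elements (yellow) in the 10 promoter windows of 7 genes, drawn as lines, with the distance from the annotated start in bases on the horizontal axis. Genes run from the largest log2 difference at the top to the smallest at the bottom. The 2 overlapping cores of BST2 appear as 1 wider block.

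In the expression data the members formed 2 classes by value in uninduced cells, set apart here after their values were seen. MX1, MX2, BST2, RSAD2 and ISG20 lay between 0.107 and 1.90 FPKM, each with a lower bound of 0. TRIM5, TRIM22, SAMHD1, ZC3HAV1 and SLFN5 lay between 13.6 and 23.4 FPKM, and of these TRIM22 also had a lower bound of 0. In induced cells all 10 values were higher, from 29.6 to 514 FPKM. All 10 passed the filter of 1 FPKM, MX2 and RSAD2 through the induced column alone. The sum over the 10 genes was 1427 FPKM in induced cells, or 0.296% of the column, against 98.9 FPKM in uninduced cells, or 0.0179% of the column. Of the 10 members, 6 rose and 0 fell, beside the 0.726% and 0.454% of all rows given above. Since these values chose the set, nothing is read from that difference. By size alone, 9 of the 10 were higher by at least 1 log2 unit, as were 9.20% of all rows, and 0 were lower by as much, as were 6.03% of all rows. Under a looser call, in which the difference between the groups has an interval that leaves out 0, 8 members rose, with TRIM22 and SLFN5 added, beside 1.26% of all rows that then rose and 1.11% that fell. In bulk RNA, more cells with the transcript and more transcript per cell cannot be told apart.

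**Figure D2:**
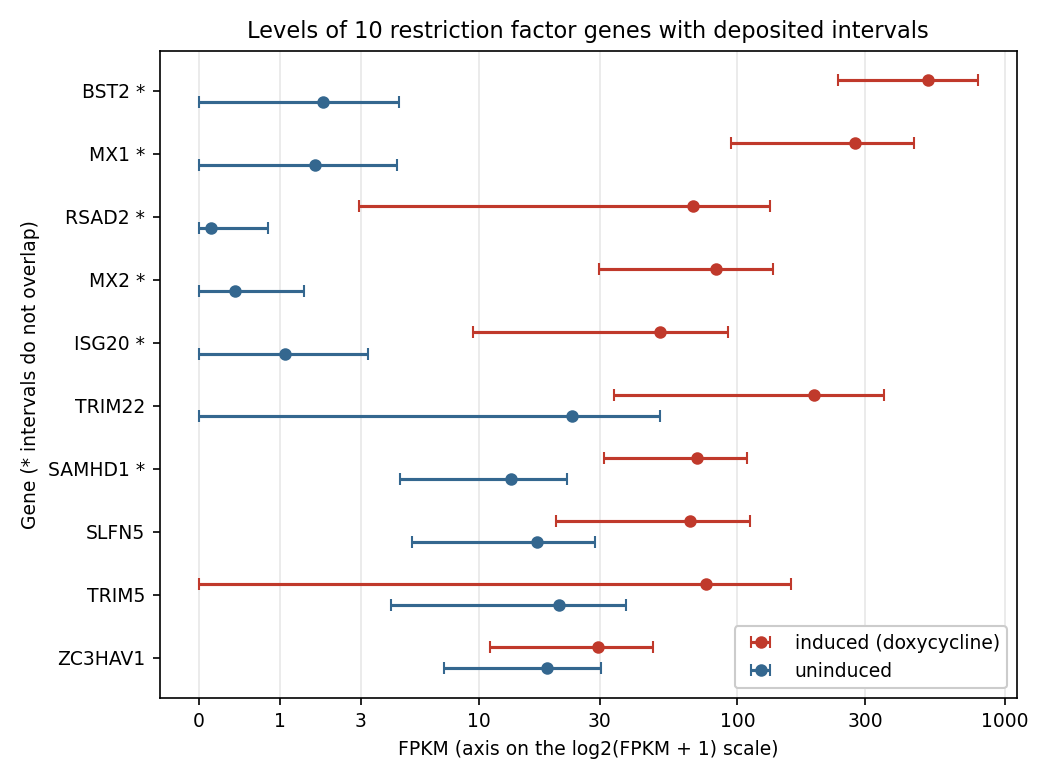
FPKM of each gene in induced (red) and uninduced (blue) cells on the log2(FPKM + 1) scale, ordered by the log2 difference. Points are the deposited values, 1 per group, bars are the deposited confidence intervals, and an asterisk marks the 6 genes whose intervals do not overlap. The upper 5 genes start between 0.107 and 1.90 FPKM, and the others between 13.6 and 23.4 FPKM.

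The MX proteins are large GTPases of the dynamin family that assemble around incoming viral complexes: MX1 acts against influenza and many other RNA viruses, and MX2 blocks the nuclear entry of HIV. MX1 rose to 275 FPKM (interval 94.4 to 457) in induced cells, against 1.70 FPKM (0 to 4.47) in uninduced cells. MX2 rose to 82.8 FPKM (29.8 to 136) in induced cells, against 0.363 FPKM (0 to 1.47) in uninduced cells. Both uninduced intervals reached 0, while both induced intervals lay above 29 FPKM, so neither pair of groups overlapped. The log2 differences, on the log2(FPKM + 1) scale used throughout, were 6.68 for MX1 and 5.94 for MX2. MX1 stood above MX2 by a factor of 3.32 in induced and of 4.70 in uninduced cells, and in both columns their intervals overlapped each other. The rows lie side by side on chromosome 21 in hg19, MX2 at 42733869 to 42781317 and MX1 at 42792230 to 42831141, with 10912 bases between them. The MX1 span also holds AP001610.5, at 11.7 FPKM (0 to 91.0) in induced and 0.208 FPKM (0 to 1.61) in uninduced cells. The libraries keep no strand, so reads of overlapping genes there cannot be told apart.

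BST2, or tetherin, is a membrane protein that holds budding virions at the cell surface. It reached 514 FPKM (interval 238 to 789) in induced cells, against 1.90 FPKM (0 to 4.55) in uninduced cells, a log2 difference of 7.47 and the largest of the 10. In the induced column it was the 58th most abundant of the 14319 rows, and in the uninduced column it was at place 12027. The induced lower bound was 52.3 times the uninduced upper bound, the widest separation in the set. BST2 is alone in its span on chromosome 19, 17513747 to 17516457.

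RSAD2 encodes viperin, a radical SAM enzyme that makes a chain-terminating nucleotide from CTP, and its neighbour CMPK2 is a nucleotide kinase transcribed from the same region. RSAD2 rose to 67.8 FPKM (interval 2.96 to 133) in induced cells, against 0.107 FPKM (0 to 0.812) in uninduced cells. The ratio of the values was 631, which rests on an uninduced value close to 0. Between the nearest bounds the factor was 3.64. The groups did not overlap, but the induced interval was wide, with an upper bound 95.6% above the value. CMPK2 has the same span on chromosome 2 (6980700 to 7038370) and was at 18.99 FPKM (0 to 53.2) in induced and 0.0635 FPKM (0 to 0.674) in uninduced cells, with overlapping intervals.

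ISG20 is an exonuclease that degrades single-stranded RNA. It rose to 51.0 FPKM (interval 9.49 to 92.4) in induced cells, against 1.09 FPKM (0 to 3.25) in uninduced cells, a log2 difference of 4.64. Its relatives of the same exonuclease family differed less in value. AEN was at 38.3 FPKM in induced and 29.9 FPKM in uninduced cells, and ISG20L2 at 21.0 FPKM in induced and 20.1 FPKM in uninduced cells, both with overlapping intervals. The exonuclease TREX1, which clears cytosolic DNA, was at 56.5 FPKM in induced and 15.1 FPKM in uninduced cells, also with overlapping intervals.

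SAMHD1 hydrolyses deoxynucleotides and so starves reverse transcription. It was the only member of the class above 13 FPKM whose intervals separated: it rose to 70.1 FPKM (interval 31.2 to 109) in induced cells, against 13.6 FPKM (4.59 to 22.5) in uninduced cells, a log2 difference of 2.29. The induced lower bound was 1.39 times the uninduced upper bound, the narrowest separation among the 6 genes that rose. Its row has the same span on chromosome 20 as that of TLDC2 (35504523 to 35580246), and reads of overlapping parts cannot be told apart by strand. Its antiviral activity is known to be switched off in cycling cells when CDK1 or CDK2 with cyclin A phosphorylates it. CCNA2, or cyclin A2, was at 15.3 FPKM (2.23 to 28.3) in induced and 70.1 FPKM (27.7 to 113) in uninduced cells. CDK1 was at 27.5 FPKM in induced and 76.4 FPKM in uninduced cells, and CDK2 at 23.3 FPKM in induced and 73.1 FPKM in uninduced cells. All 3 pairs of intervals overlapped, that of CCNA2 by less than 1 FPKM. Phosphorylation was not measured.

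TRIM5 and TRIM22 are neighbouring E3 ubiquitin ligases: TRIM5 recognises the capsid of entering retroviruses, and TRIM22 limits transcription of integrated HIV. TRIM22 was at 194 FPKM (interval 34.0 to 354) in induced cells and 23.4 FPKM (0 to 50.9) in uninduced cells, a log2 difference of 3.001. TRIM5 was at 76.1 FPKM (0 to 159) in induced cells and 21.0 FPKM (4.17 to 37.7) in uninduced cells, a log2 difference of 1.81. Both pairs of intervals overlapped, so neither gene is counted as changed. The value of TRIM22 differed by a factor of 8.30, more than the 5.17 of SAMHD1, but its induced upper bound lay 82.5% above the value, against 55.5% for SAMHD1. Both rows carry the same span on chromosome 11, 5684424 to 5959849, which 15 rows share, and list 10 start sites for TRIM22 and 12 for TRIM5, against 3 for SAMHD1. How far fragments were divided between them was not tested. In induced cells TRIM22 stood at 2.55 times TRIM5, and in uninduced cells at 1.12 times TRIM5, with overlapping intervals in both columns. TRIM34, of the same gene cluster, was at 18.4 FPKM in induced and 7.85 FPKM in uninduced cells, and TRIM6 at 3.53 FPKM in induced and 2.40 FPKM in uninduced cells, both with overlapping intervals. PPIA, or cyclophilin A, which binds the capsid that TRIM5 recognises, was at 544 FPKM in induced and 1016 FPKM in uninduced cells, with overlapping intervals.

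SLFN5 belongs to the Schlafen family and is known to repress transcription from viral DNA. It was at 66.1 FPKM (interval 20.4 to 112) in induced cells and 17.1 FPKM (5.23 to 28.9) in uninduced cells, a log2 difference of 1.89. The intervals overlapped between 20.4 and 28.9 FPKM. Of its 6 listed relatives 3 passed the filter and 0 rose or fell, beside 0.726% of all rows that rose and 0.454% that fell. A count of 0 among 3 genes is near those shares and says little of the family. SLFN11, which restricts HIV through transfer RNAs, was at 15.6 FPKM in induced and 16.7 FPKM in uninduced cells, and SLFN12 at 10.9 FPKM in induced and 6.995 FPKM in uninduced cells. The median log2 difference of the 3 was -0.09, but 0.09 after scaling both columns to equal sums and 0.24 among genes with a mean of at least 5 FPKM, so it has no settled direction.

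ZC3HAV1, or ZAP, binds CpG-rich viral RNA and sends it to decay. It had the smallest difference of the set, 0.63 on the log2 scale, at 29.6 FPKM (interval 11.2 to 48.1) in induced and 18.8 FPKM (7.19 to 30.4) in uninduced cells. Most of both intervals overlapped. TRIM25, the ubiquitin ligase that ZAP needs, was at 69.2 FPKM (0.236 to 138) in induced and 25.01 FPKM (0.514 to 49.5) in uninduced cells. KHNYN, a nuclease partner of ZAP, was at 25.6 FPKM in induced and 24.1 FPKM in uninduced cells. Of the related zinc finger PARPs, PARP12 rose to 45.2 FPKM (13.1 to 77.3) in induced cells, against 5.31 FPKM (0 to 11.3) in uninduced cells, and TIPARP was at 62.4 FPKM in induced and 50.7 FPKM in uninduced cells with overlapping intervals.

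FPKM is scaled to length, so levels can be ordered within a column. The induced order ran BST2, MX1, TRIM22, MX2, TRIM5, SAMHD1, RSAD2, SLFN5, ISG20 and ZC3HAV1, and every neighbouring pair had overlapping intervals. Of the 45 pairs of members 9 had separate intervals in induced cells. BST2 lay above MX2, RSAD2, TRIM5, SAMHD1, ZC3HAV1, ISG20 and SLFN5, and MX1 above ZC3HAV1 and ISG20. The uninduced order ran TRIM22, TRIM5, ZC3HAV1, SLFN5, SAMHD1, BST2, MX1, ISG20, MX2 and RSAD2. Here 18 of the 45 pairs were separate, and the only neighbours apart were SAMHD1 and BST2, at the step between the classes. The classes were not fully apart by interval. TRIM22 (0 to 50.9 FPKM) overlapped every member of the low class. TRIM5 (4.17 to 37.7 FPKM) overlapped BST2 (0 to 4.55 FPKM) and MX1 (0 to 4.47 FPKM). The median log2 difference was 5.96 for the 5 members of the low class and 1.89 for the 5 of the higher class. The classes were set by the uninduced value, which is also subtracted in the difference. A larger difference in the low class is therefore partly built in.

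**Figure D3:**
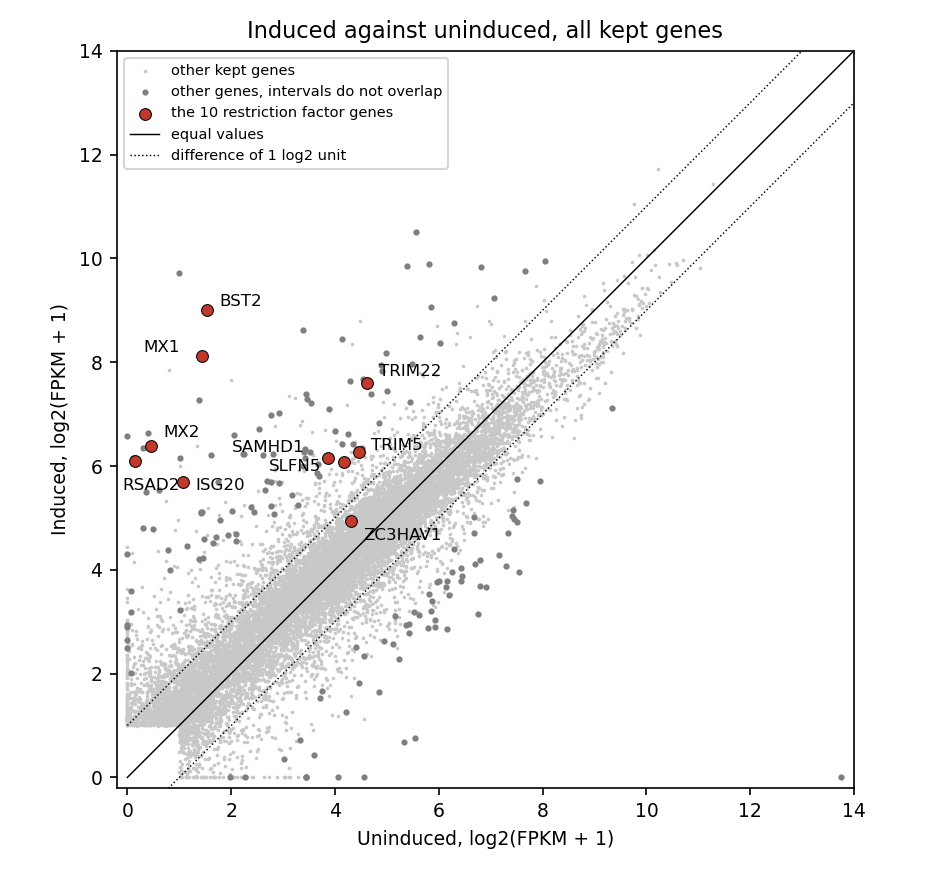
Induced against uninduced log2(FPKM + 1) for the 14319 kept rows (light grey), rows whose intervals do not overlap (dark grey) and the 10 members (red), 1 value per group. BST2, MX1, MX2, RSAD2 and ISG20 lie at the left edge far above the line of equal values, and ZC3HAV1 is the only member within 1 log2 unit of it.

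Against all kept rows, 4 members were among the 10 largest log2 differences and 5 among the largest 20: BST2 at place 2, MX1 at 4, RSAD2 at 9, MX2 at 10 and ISG20 at 20. TRIM22 was at place 96, SAMHD1 at 210, SLFN5 at 335, TRIM5 at 373 and ZC3HAV1 at 2642. The kept row outside the set closest to each member that rose, by distance over the 2 columns in log2(FPKM + 1), was looked up. For BST2 it was IFI27 (distance 0.89 log2 units) and for MX1 it was OAS1 (0.69), both interferon-stimulated genes. For RSAD2 it was CHRNA1 (0.060), a muscle acetylcholine receptor subunit, for MX2 it was MFI2 (0.16), or melanotransferrin, and for ISG20 it was CD36 (0.31), a fatty acid receptor. For SAMHD1 it was ASNS (0.047), or asparagine synthetase. Likeness over 2 values says only that the levels are similar.

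The other restriction factors and their cofactors, 46 genes such as the OAS, IFIT, IFITM, APOBEC3 and GBP groups, were taken as the wider pathway. Of these 43 passed the filter, 7 rose and 0 fell, 31 were higher by at least 1 log2 unit, and the median was 1.66. Over all kept rows 0.726% rose, 0.454% fell and 9.20% were higher by as much. The median over all kept rows was 0.05, and 0.23 after scaling both columns to equal sums. The genes of this list that rose were led by IFI44L (154 FPKM in induced and 1.62 FPKM in uninduced cells), OASL (69.9 FPKM in induced and 1.02 FPKM in uninduced cells), the ubiquitin-like ISG15 and the membrane protein IFITM1 (943 FPKM in induced and 54.9 FPKM in uninduced cells). Since this list was drawn up with results of these data known, its counts are a description.

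The families of single members had medians closer to 0. Of 13 kept dynamins and related GTPases 1 rose and 0 fell, beside 0.726% and 0.454% of all rows. By size alone 3 of the 13 were higher by at least 1 log2 unit and 1 was lower by as much. Over all rows these shares were 9.20% and 6.03%. The median was 0.05 (-0.16 among genes with a mean of at least 5 FPKM, and 0.24 after scaling both columns to equal sums), so it has no settled direction. The gene that rose was GBP1, a guanylate-binding protein (97.0 FPKM in induced and 17.9 FPKM in uninduced cells). GBP1 was already counted among the other restriction factors that rose. Some further genes of these families, such as TRIM21, also stand in that list, so the lists are not separate. The classical dynamins had overlapping intervals, with DNM2 at 54.9 FPKM in induced and 61.2 FPKM in uninduced cells. Of 39 kept TRIM genes outside the set 0 rose and 0 fell, beside 0.726% and 0.454% of all rows, so the count is near the share over all rows and says little of the family. By size alone 6 of the 39 were higher by at least 1 log2 unit and 0 were lower by as much. With both columns scaled to equal sums 1 rose, TRIM21. The median log2 difference of the 39 was 0.29, and 0.47 after scaling both columns to equal sums. Without the filter the median over all 64 TRIM genes was 0, with 17 of the 64 listed at 0 in both columns. The most abundant were TRIM28, a corepressor, at 197 FPKM in induced and 329 FPKM in uninduced cells, and TRIM8 at 75.1 FPKM in induced and 52.4 FPKM in uninduced cells. The largest log2 differences were those of TRIM69 (58.6 FPKM in induced and 9.52 FPKM in uninduced cells) and TRIM21, a cytosolic antibody receptor (60.2 FPKM in induced and 14.2 FPKM in uninduced cells).

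**Figure D4:**
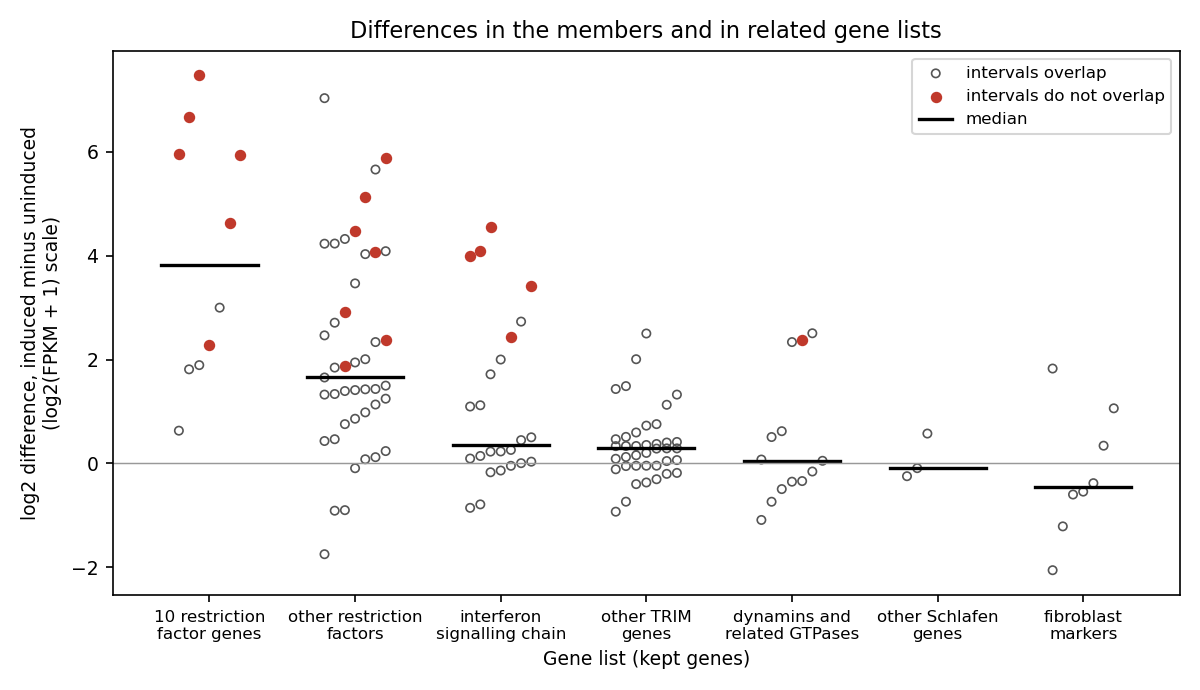
Difference in log2(FPKM + 1), induced minus uninduced, of each kept gene in the 10-gene set, in related lists and in fibroblast markers. Filled points have intervals that do not overlap, and lines are medians, 3.82 for the set, 1.66 for the other restriction factors and 0.35 for the signalling chain.

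Of 30 genes of the interferon signalling chain, from ligands to feedback genes, 24 passed the filter, 5 rose and 0 fell, beside 0.726% and 0.454% of all rows, with a median of 0.35. By size alone 10 of the 24 were higher by at least 1 log2 unit, beside 9.20% of all rows. The count lower by as much was 0, beside 6.03% of all rows. The ligand IFNB1 was at 1.17 FPKM (interval 0 to 2.67) in induced cells and listed at 0 in uninduced cells, with intervals that touch at 0. The receptor chains had overlapping intervals, with IFNAR1 at 42.4 FPKM in induced and 36.0 FPKM in uninduced cells and IFNAR2 at 17.1 FPKM in induced and 14.1 FPKM in uninduced cells. So did the kinases JAK1, at 41.7 FPKM in induced and 43.1 FPKM in uninduced cells, and TYK2, at 36.7 FPKM in induced and 40.5 FPKM in uninduced cells. Of the factors that bind the response element, STAT2 rose to 172 FPKM (65.7 to 279) in induced cells, against 31.1 FPKM (8.72 to 53.5) in uninduced cells. IRF9 was at 123 FPKM in induced and 29.95 FPKM in uninduced cells, with overlapping intervals. The feedback protease USP18 rose to 73.8 FPKM in induced cells, against 3.72 FPKM in uninduced cells. The sensors IFIH1 and DDX58 and the factor IRF7 were the other 3 that rose.

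The markers of the labelled cell type were present: all 8 fibroblast markers passed the filter, with VIM, or vimentin, at 905 FPKM in induced and 2098 FPKM in uninduced cells, and COL1A2 at 519 FPKM in induced and 756 FPKM in uninduced cells. Of the 8, 3 had higher values in induced cells, namely COL3A1 (445 FPKM in induced and 125 FPKM in uninduced cells), DCN (122 FPKM in induced and 58.1 FPKM in uninduced cells) and LUM (181 FPKM in induced and 143 FPKM in uninduced cells). The other 5 had lower values, THY1 by the most (92.5 FPKM in induced and 388 FPKM in uninduced cells). The intervals of all 8 overlapped. BST2 is also used as a marker of plasmacytoid dendritic cells, which make much interferon. Of 5 markers of that cell type, the defining CLEC4C and LILRA4 and also GZMB were listed at 0 in both columns, and the whole list summed to 53.2 FPKM in induced and 35.2 FPKM in uninduced cells, nearly all of it TCF4. Of 6 leukocyte markers CD14 and PTPRC passed the filter, and the list summed to 3.61 FPKM in induced and 1.39 FPKM in uninduced cells. No endothelial marker (of 5) and no epithelial marker (of 6) passed the filter.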

How the data were processed

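Column-purified RNA was sequenced from libraries that do not keep strand, per the labels' protocols. TopHat and the build hg19 are named, per the submitters' processing notes. What quantified the genes is not given in the sources used here. FPKM was deposited as the processed unit. The deposited FPKM values and bounds come as 1 column set per group, per the file headers. Neither the pooling of samples behind a column nor the confidence level of the bounds is stated. The 6 columns used were matched to groups by name; 3 value columns that match no sample here were left out of every step.

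Rows with at least 1 FPKM in either column were kept, and log2 differences used log2(FPKM + 1), which understates the change of low genes. A gene was called where the intervals did not overlap; 3 kept rows with malformed bounds were never called. No test over samples was possible with 1 value per group. Total reads are unknown: the table holds no counts. The most frequent ratio of low values was 0.86, induced over uninduced (131 of 2973 rows within 0.01). If those rows held equal fragment counts and scaling followed library size alone, the induced column would have 1.16 times the depth. Neither condition was tested. The FPKM sums were 482743 in the induced and 553536 in the uninduced column.

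The members, the gene lists and the rule for named genes were chosen with earlier results of these data known. The rule named all members and FOXA2. For each list it named up to 4 called genes with the largest differences, or the 2 most abundant where none was called. For each called member it named the nearest kept row. The values of some listed genes, which stay in the counts, are not reported here. Partners, relatives, receptors and kinases named beyond it were chosen after their values were seen. Where a symbol had several rows, the most abundant was used. The alternatives were another pseudocount, no filter or a mean of 5 FPKM, scaling to equal sums, quantile normalization, requiring values above 0 in both columns, and a call from the interval of the difference. Promoter letters are RefSeq's, GRCh38.p14; the table's coordinates are hg19 and the builds were not mixed. Python 3.11.15, pandas 2.3.3 and NumPy 2.4.6 were used.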

Additional observations from a re-analysis of the deposited data

How the results depend on the processing

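All 10 members stayed above 0 under each of the 7 alternatives to the expression settings, and the 6 that rose kept non-overlapping intervals or a difference interval above 0. Only equal-sum scaling and quantile normalization could have removed a call from these 6. The pseudocount, the filters and the need for values above 0 leave the bounds of these members unchanged. The interval of the difference is a looser rule, so they pass it by construction. With the call resting on the interval of the difference excluding 0, 8 members rose, adding TRIM22 and SLFN5. Under that looser rule 180 of all kept rows rose (1.26%) and 159 fell (1.11%), and the rising counts became 13 for the other restriction factors, 2 for the dynamin family (GBP1 and GBP2), 2 for the TRIM family (TRIM21 and TRIM69) and 6 for the signalling chain. The signalling chain also had 6 rising genes, against 5, under equal-sum scaling and under quantile normalization, and equal-sum scaling gave 1 rising TRIM gene (TRIM21), against 0. With a pseudocount of 0.1 FPKM the median log2 difference of the members was 4.24, against 3.82, since low values are shrunk less. With 1 mismatch allowed in the response element core, 7 of 7 genes matched, as did 33.02% of all windows. No paired analysis was possible because both groups come as a lone column with no replicate values; leaving out a replicate was not run for the same reason. The wide intervals set the limit: the median distance from value to upper bound over kept rows was 99.97% of the induced and 100.6% of the uninduced value, so an overlap does not show that a gene stayed the same.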

Other observations

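A few antiviral genes of the wider list had lower values in induced cells, all with overlapping intervals. APOBEC3B, a cytidine deaminase that edits viral DNA, was at 4.75 FPKM (interval 0 to 10.0) in induced and 18.3 FPKM (2.54 to 34.1) in uninduced cells, a log2 difference of -1.75. DAXX, a nuclear repressor of incoming viral genomes, was at 31.6 FPKM (8.74 to 54.4) in induced and 60.3 FPKM (20.4 to 100.1) in uninduced cells, a log2 difference of -0.91. Both were picked after their values were seen.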
